A study of Homo sapiens with 28 samples.

Results

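H3K4me3 was compared between the S phase and late G1 fractions of human embryonic stem cells, as 2 peak lists of the 28 samples in the series. The S phase list (label AzL) held 25977 peaks and the late G1 list (label KO2) held 25653. Heights were listed for chromosomes 1 to 21, where the lists held 24308 peaks in S and 23911 in late G1, covering 20.6 Mb in S and 18.0 Mb in late G1. A peak counted as kept when it shared at least 1 bp with a peak of the other list, as gained when it was listed in S alone, and as lost when it was listed in late G1 alone.

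Both fractions came from 1 cell line that expresses the Fucci reporters, fluorescent proteins that are degraded at different points of the cell cycle, so that living cells can be sorted by phase. The cells grew without serum or feeders in a defined medium with Heregulin, Activin, IGF-1 and FGF2, and the labels name no other treatment. The series profiles 4 histone marks in 4 phases by ChIP-seq, which sequences the DNA bound by an antibody, with 1 library per phase and mark. The groups used are H3K4me3 and H3K27me3 in S and in late G1, with H3K27ac and H3K4me1 of both phases and H3K4me3 of early G1 and G2/M as further readouts.

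H3K4me3 is laid down by SET1 and MLL complexes around the start sites of active genes, and by MLL2 at many silent developmental promoters of stem cells. H3K27me3 is written by Polycomb repressive complex 2, and embryonic stem cells are known for bivalent promoters that carry both marks. During S phase parental histones are shared between the daughter strands and new histones without these methyl marks fill the gaps, so that each mark has to be restored after the fork has passed.

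With 1 library per phase, no spread between replicates was measured and no test between phases was possible. Ranges in brackets after a share or a median are 95% intervals, exact Clopper-Pearson for shares and by order statistics for medians. They treat peaks as independent and cover counting error alone. Read depth is unknown for all lists. In sorted bulk cells, fewer cells that carry the mark and less mark per cell cannot be told apart. No annotation of the build of the files was used, so peaks are given by position, and the labelled cell type was not checked against marker genes.

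Most H3K4me3 peaks were shared by the 2 phases, and the unshared ones were short and low. Of the S peaks, 18717 of 24308 overlapped a late G1 peak (77.0%, 76.5 to 77.5), which left 5591 gained peaks, 23.0% of the S list. Of the late G1 peaks, 20379 of 23911 overlapped an S peak (85.2%, 84.8 to 85.7), which left 3532 lost peaks, 14.8% of the late G1 list. Joined into runs of overlapping peaks, the lists formed 26402 regions, of which 5591 were gained, 3532 lost and 17279 kept.

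Gained peaks had a median width of 150 bp (quartiles 100 and 225), and so did lost peaks. Kept peaks were far wider, with a median of 825 bp in S (quartiles 400 and 1450) and 650 bp in late G1 (quartiles 300 and 1150). Only 148 of the 5591 gained peaks and 89 of the 3532 lost peaks reached 500 bp. The deposited height, a signal whose scale is not given, had a median of 17.2 in gained peaks against 57.0 in kept S peaks, and of 18.2 in lost peaks against 46.1 in kept late G1 peaks. Among gained peaks 99.3% lay below the median height of the S list, and among lost peaks 97.7% lay below the median of the late G1 list.

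The tallest gained peak had a height of 58.3, and the 9207 S peaks above it were all kept. The tallest lost peak had a height of 140, with 2449 taller late G1 peaks. The tallest lost peak thus stood higher in the late G1 list than the tallest gained peak did in the S list. Of the 20 tallest lost peaks, 19 lay beside long stretches without any peak, which are described below.

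Unshared peaks usually sat next to a peak of the other phase. The nearest late G1 peak was a median of 400 bp from a gained peak (quartiles 175 and 1400), and 3965 gained peaks (70.9%) had one within 1 kb. The nearest S peak was a median of 500 bp from a lost peak (quartiles 150 and 16712.5), and 2132 lost peaks (60.4%) had one within 1 kb. Isolated peaks, more than 5 kb from the other list, numbered 1103 among gained peaks (19.7%) and 1109 among lost peaks (31.4%), so a larger share of the lost peaks stood alone.

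**Figure D1:**
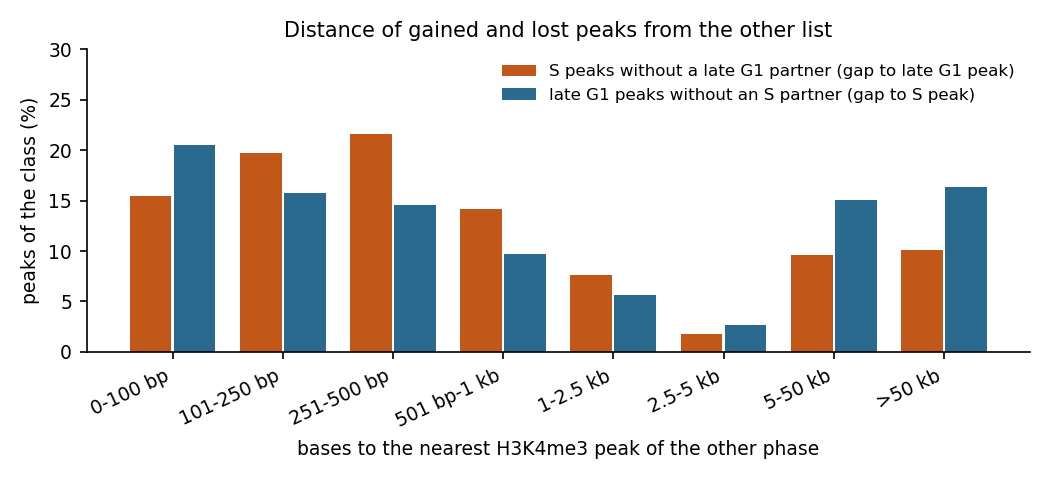
Share of gained S peaks (left bar of each pair) and lost late G1 peaks (right bar) by distance in bases to the nearest H3K4me3 peak of the other phase, as a percentage of each class. Beyond 5 kb lie 19.7% of gained peaks and 31.4% of lost peaks.

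The other 2 phases listed H3K4me3 at many of these places. Of gained peaks, 41.1% overlapped an early G1 peak, 33.2% a G2/M peak and 49.0% neither. Of lost peaks, 36.4% overlapped an early G1 peak, 39.5% a G2/M peak and 43.8% neither. Kept S peaks were listed in early G1 in 90.1% and in G2/M in 93.5% of cases. Among the isolated peaks, 55.2% of gained and 49.1% of lost peaks were listed in G2/M, and 26.7% of gained and 37.1% of lost peaks in neither early G1 nor G2/M. H3K27me3 in S overlapped 21.6% of isolated gained peaks, beside 12.4% of all gained and 16.3% of kept S peaks. H3K27me3 in late G1 overlapped 39.6% of isolated lost peaks, beside 32.3% of all lost and 17.2% of kept late G1 peaks. The H3K27me3 list was longer in late G1, so these shares are not comparable between gained and lost peaks.

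The tallest and widest unshared peaks of each list are given next. The tallest gained peak lay on chromosome 1 from 36689151 to 36689675, 225 bp from a late G1 peak, and carried H3K27ac in both phases. The next had heights of 50.7 on chromosome 4 (48342576 to 48343250), 50.6 on chromosome 20 (60641476 to 60642100) and 49.5 on chromosome 15 (44718476 to 44719175). These 4 were also listed in early G1 and G2/M, and each lay within 500 bp of a late G1 peak. The fifth, on chromosome 1 from 567576 to 567850 (height 48.2), carried H3K27me3 in S, was listed in G2/M and not in early G1, and lay 275 bp from a late G1 peak. The widest gained peak, on chromosome 6 from 26779326 to 26780875, measured 1550 bp with a height of 28.5 and carried H3K27me3 in both phases. The next 4 widest measured 975 to 1250 bp, on chromosomes 1, 2, 7 and 14; the one on chromosome 7 (125564951 to 125566000) was listed in early G1 and G2/M and the other 3 in neither.

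The 3 tallest lost peaks were neighbours on chromosome 16 between 46386676 and 46401300, with heights of 140, 102 and 97.9, and the widest of them measured 3525 bp. The next tallest had heights of 84.2 on chromosome 20 (29829251 to 29829800) and 76.6 on chromosome 17 (22252576 to 22253425). Among the widest were a peak of 2025 bp on chromosome 4 (49094051 to 49096075) and one of 1350 bp on chromosome 8 (46841376 to 46842725). All of these overlapped H3K27me3 in S, were listed in G2/M and were not listed in early G1, and none carried H3K27ac.

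Over peaks of all heights together, a larger share of those with H3K27me3 was lost. The difference in gains was smaller there and depended on which peaks were taken, but at like height it was not smaller, as given below. Of late G1 peaks with H3K27me3 in late G1, 1141 of 4655 were lost (24.5%, 23.3 to 25.8), against 2391 of 19256 without it (12.4%, 11.95 to 12.9). Of S peaks with H3K27me3 in S, 695 of 3753 were gained (18.5%, 17.3 to 19.8), against 4896 of 20555 without it (23.8%, 23.2 to 24.4). The background was 14.8% lost and 23.0% gained over all peaks. Read the other way, H3K27me3 overlapped 32.3% of lost and 17.2% of kept late G1 peaks, and 12.4% of gained and 16.3% of kept S peaks.

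The 2 H3K27me3 lists differed in length, with 19989 peaks in S and 31682 in late G1. Set against the S list of H3K27me3 alone, 28.7% of lost late G1 peaks overlapped it, against 14.4% of kept ones. The difference in gained share, with H3K27me3 minus without, was -5.30 percentage points over all S peaks. In the stricter part of each list by score it was -0.13 points (-1.93 to 1.67). Among peaks of at least 500 bp it was 1.66 points (-0.20 to 3.51). Both of these approximate intervals include 0.

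Peaks with H3K27me3 are lower on the whole, so the shares were compared within 8 bins of equal size by height. In the lowest bin of the late G1 list, 36.4% of peaks with H3K27me3 were kept, against 55.3% without it. In the lowest bin of the S list, 42.2% of peaks with H3K27me3 had a late G1 partner, against 22.5% without it. In the second bin the kept shares were 46.0% with and 69.1% without H3K27me3 in late G1. In S they were 56.9% with it and 36.4% without. At low heights the gap was thus of similar size in both lists and ran in opposite directions. In both lists the gap had nearly closed by the sixth bin, and from there upward each class kept more than 99% of its peaks.

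**Figure D2:**
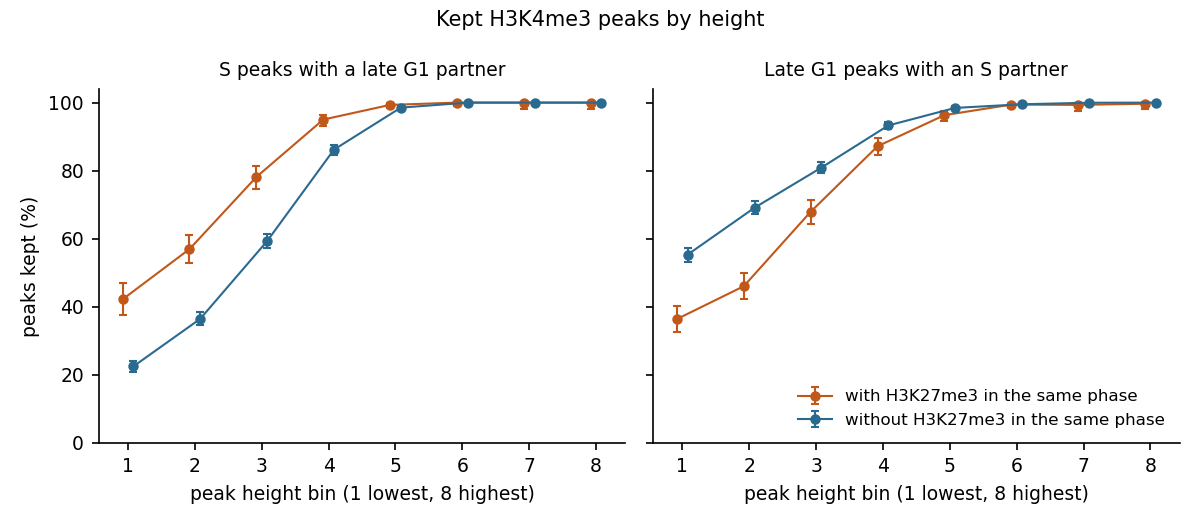
Percentage of H3K4me3 peaks kept, for S peaks (left panel) and late G1 peaks (right panel), in 8 bins of peak height, with and without H3K27me3 in the same phase; bars are exact 95% binomial intervals. With H3K27me3 the low S peaks were kept more often and the low late G1 peaks less often.

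Acetylation of H3K27, a mark of active promoters and enhancers, was listed more often at kept than at unshared peaks. Kept peaks were also wider, with medians of 825 bp in S and 650 bp in late G1, against 150 bp in gained and in lost peaks. A wider peak has more bases to overlap, and the shares were not compared at equal width or height. H3K27ac overlapped 3.005% of gained and 6.80% of kept S peaks in S, and 4.19% of lost and 23.5% of kept late G1 peaks in late G1. The H3K27ac list was shorter in S, with 10268 peaks against 32521 in late G1, so the levels are not comparable between phases. H3K4me1, an enhancer mark, overlapped 1.02% of gained and 0.68% of kept S peaks in S, and 0.25% of lost and 0.16% of kept late G1 peaks in late G1. The H3K4me1 lists were short, with 6280 peaks in S and 4017 in late G1, which limits these shares in every class.

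In the 17279 kept regions H3K4me3 peaks were listed a little wider in S. Heights were balanced once divided by the list median, while widths were not scaled. The median width was 900 bp in S and 800 bp in late G1, a median log2 ratio of 0.17 (0.16 to 0.17). S widths were larger in 70.6% of regions and smaller in 24.4%. A width at least 2-fold larger in S was seen in 1107 regions (6.41%), against 546 (3.16%) at least 2-fold smaller. For relative height, a region's tallest peak was divided by the median over kept regions of the same list, 62.9 in S and 55.0 in late G1, which holds the typical ratio near 1. The median log2 ratio was -0.01, with 193 regions (1.12%) at least 2-fold higher in S and 455 (2.63%) at least 2-fold lower.

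Dividing by the median sets this balance. On relative heights 51.4% of kept regions were lower in S, and on heights as deposited 33.8% were. Deposited heights also turn the count of large differences round, to 512 regions at least 2-fold higher in S and 210 at least 2-fold lower. The scaling lowers every log2 ratio by 0.19, so differences between the medians of classes do not depend on it, while shares and counts within a class do.

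Peaks joined in S more often than they split, and regions that did neither were wider too. In 2296 kept regions (13.3%) several late G1 peaks lay under 1 S peak, and in 973 (5.63%) several S peaks lay under 1 late G1 peak. The 13703 regions with 1 peak in each list had a median log2 width ratio of 0.17 as well. Their positions hardly moved: the highest points of the paired peaks lay a median of 47 bp apart (quartiles 18 and 100), and 92.9% lay within 250 bp.

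Regions with H3K27me3 in both phases were relatively lower in S and were not wider, and regions with H3K27me3 in neither phase were wider and, on this scale, close to level. The 2630 regions with H3K27me3 in both phases had a median deposited height of 34.9 in S and 39.5 in late G1, and the 13765 regions with it in neither had 75.3 in S and 61.0 in late G1. The median log2 relative height, S over late G1, was -0.32 with H3K27me3 in both phases (-0.35 to -0.30) and 0.05 with H3K27me3 in neither (0.04 to 0.06). Of the regions with H3K27me3 in both phases, 77.1% were relatively lower in S, against 45.3% of those with H3K27me3 in neither. On deposited heights the shares were 62.0% with H3K27me3 and 27.2% without, and the medians -0.13 with H3K27me3 and 0.24 without. The middle ranges of the 2 classes overlapped, with quartiles of -0.64 and -0.03 with H3K27me3 and -0.22 and 0.31 without.

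Large differences showed the same split. At least 2-fold lower were 243 regions with H3K27me3 in both phases (9.24%) and 169 with it in neither (1.23%), beside 2.63% of all kept regions. At least 2-fold higher were 8 regions with H3K27me3 in both phases (0.30%) and 182 with it in neither (1.32%), beside 1.12% of all kept regions. On deposited heights, 129 regions with H3K27me3 (4.90%) and 61 without (0.44%) were at least 2-fold lower, and 22 with H3K27me3 (0.84%) and 481 without (3.49%) at least 2-fold higher. Regions with H3K27me3 in S only (173) had a median of -0.33, and those with it in late G1 only (711) a median of -0.19, between the other classes.

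**Figure D3:**
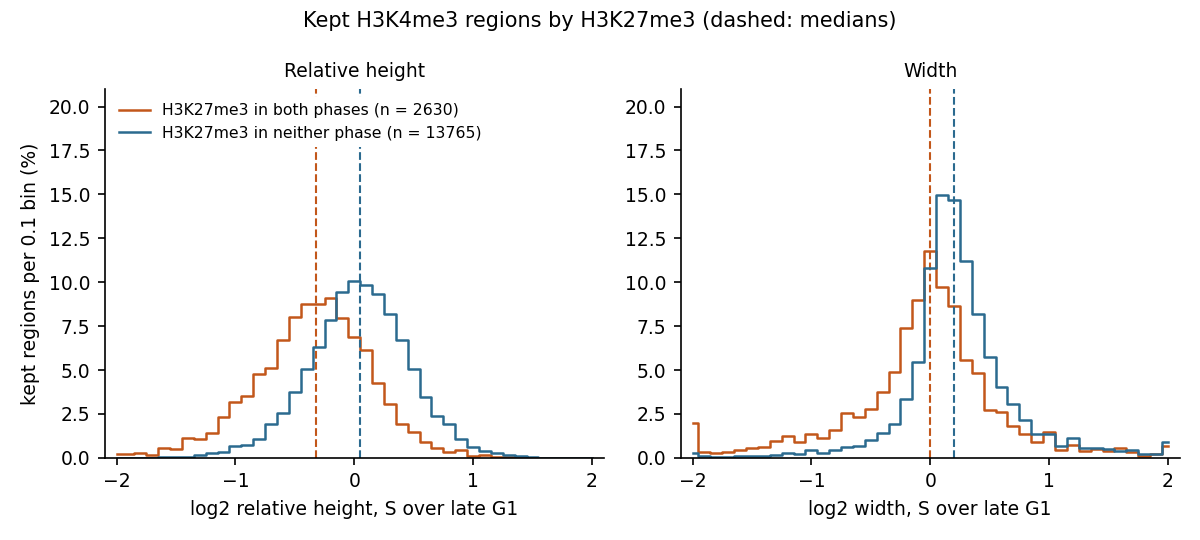
Distribution of the log2 ratio, S over late G1, of relative height (left) and width (right) over kept regions with H3K27me3 in both phases or in neither, as a percentage of regions per bin; dashed lines are medians and the end bins take all values beyond the axis. The height medians are -0.32 with H3K27me3 and 0.05 without, and the width medians 0.00 with H3K27me3 and 0.20 without.

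Widths split the same way. Regions with H3K27me3 in both phases had a median width of 550 bp in S and 575 bp in late G1, with 46.6% wider and 47.2% narrower in S. Regions with it in neither phase had 1000 bp in S and 850 bp in late G1, with 75.9% wider and 19.3% narrower. Both edges lay farther out in S in 20.3% of regions with H3K27me3 and in 43.1% without. Both edges lay farther in for 21.8% with H3K27me3 and 6.96% without. Peaks that joined in S made up 7.95% of regions with H3K27me3 and 14.6% without, and peaks that split 9.92% with H3K27me3 and 4.61% without.

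Height and width ratios were related. Over kept regions the 2 log2 ratios had a Spearman correlation of 0.46 (n = 17279, all from the same 2 libraries). Among regions whose deposited heights in S and late G1 differed by at most 10%, the median width was 675 bp in S and 625 bp in late G1 with H3K27me3 in both phases (665 regions). With H3K27me3 in neither phase it was 975 bp in S and 862.5 bp in late G1 (3150 regions). The median log2 ratios were 0.10 with H3K27me3 and 0.15 without, so at equal height the width difference between the classes was smaller.

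The split was also seen among regions of like height and on each chromosome. In 8 bins of mean relative height, the median log2 ratio of height was lower with H3K27me3 than without in every bin, by 0.11 in the lowest bin and by 0.30 to 0.50 in the others. The median log2 width ratio was lower in every bin too, by 0.09 to 0.42. On each of the 21 chromosomes the median log2 relative height was below 0 with H3K27me3, from -0.48 on chromosome 16 to -0.20 on chromosome 15, and on deposited heights it was below 0 on all 21 as well. The difference from regions without H3K27me3 ran from -0.52 on chromosome 16 to -0.22 on chromosome 15.

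**Figure D4:**
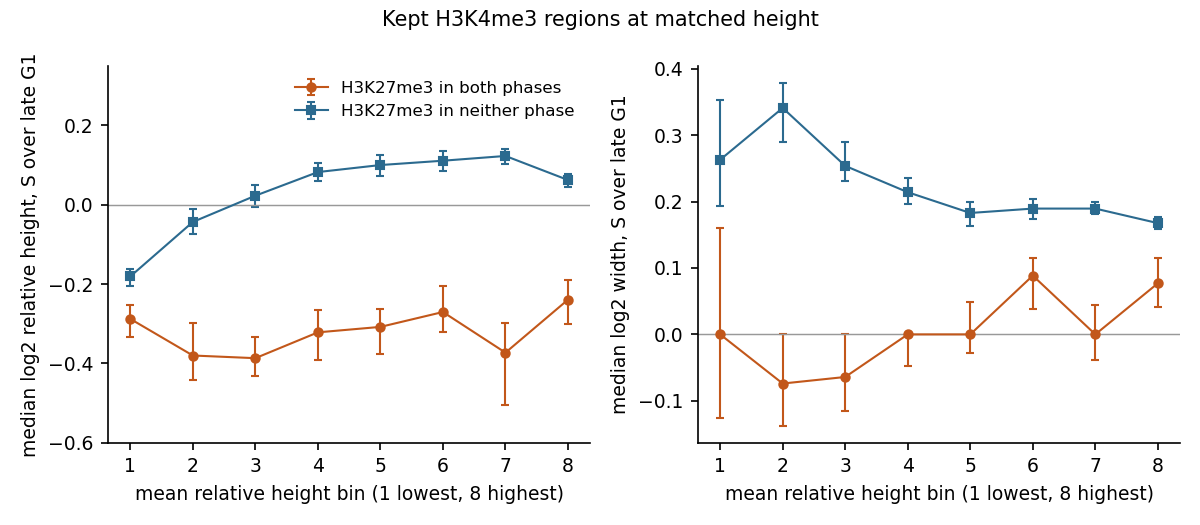
Median log2 ratio, S over late G1, of relative height (left) and width (right) in 8 bins of the region's mean relative height, for kept regions with H3K27me3 in both phases (circles) and in neither (squares); bars are 95% order-statistic intervals. With H3K27me3 the median lies lower in all 8 bins of both panels.

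The S over late G1 ratio of H3K27me3 height was related to the H3K4me3 ratio only weakly. In the regions with H3K27me3 in both phases its own median height was 39.0 in S and 74.3 in late G1. Across these 2630 regions the log2 ratios of the 2 marks had a Spearman correlation of -0.22. The 877 regions with the lowest H3K27me3 ratio had a median H3K4me3 ratio of -0.23, and the 877 with the highest had -0.46. By the width of the widest H3K27me3 peak in late G1, the median was -0.39 under 1 kb (789 regions), -0.27 from 1 to 2.5 kb (975), -0.28 from 2.5 to 5 kb (496) and -0.38 at 5 kb or more (370), with no steady trend.

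Acetylated regions had median ratios above 0 in the absence of H3K27me3 and below 0 in its presence. Without H3K27me3 in either phase, the median log2 relative height was 0.19 with H3K27ac in both phases (1156 regions), 0.42 with H3K27ac in S only (39), 0.12 with H3K27ac in late G1 only (3260) and 0.00 with H3K27ac in neither (9310). With H3K27me3 in both phases, it was -0.40 with H3K27ac in both phases (34 regions), -0.62 with H3K27ac in S only (9), -0.23 with H3K27ac in late G1 only (121) and -0.33 with H3K27ac in neither (2466). The acetylation classes also differed in width and were not compared at equal width or height. Without H3K27me3 in either phase, the median S width was 1725 bp with H3K27ac in both phases and 800 bp with it in neither.

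Single kept regions reached larger ratios. Height ratios were ranked among regions at or above the 25th percentile of height in both lists, which leaves out low peaks, and within that limit the largest without H3K27me3 was on chromosome 10 from 129922226 to 129925275, with a height of 283 in S and 67.4 in late G1 (log2 ratio 1.88) and a width of 3050 bp in S and 1875 bp in late G1. Next came chromosome 20 from 44440901 to 44442725, with 356 in S and 96.1 in late G1 (1.70). On chromosome 12, from 6959526 to 6962475, 3 late G1 peaks of 1075 bp in all lay under 1 S peak of 2950 bp. Within the same limit the lowest ratio without H3K27me3 was on chromosome 10 from 38299476 to 38300575, with 39.5 in S and 98.6 in late G1 (-1.51).

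With H3K27me3 in both phases, the largest ratio within that limit was on chromosome 5 from 180633426 to 180634750, with a height of 123 in S and 45.6 in late G1 (1.24). The smallest within it was on chromosome 16 from 46420126 to 46425425, with 43.2 in S and 192 in late G1 (-2.34), where the listed width was 425 bp in S and 5300 bp in late G1. On chromosome 11, from 51582576 to 51583125, the heights were 34.3 in S and 127 in late G1 (-2.09). The regions on chromosomes 16 and 11, like the tallest lost peaks, lay beside long stretches without any peak, and so did the region on chromosome 10 from 38299476, which had no H3K27me3.

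These stretches were then measured, a step chosen after their neighbours had been seen. The longest stretch without a peak was at least 3 Mb long on 18 of the 21 chromosomes, and hg19 is known to have its centromeric gaps in such places. Within 2 Mb of a stretch lay 189 kept regions with H3K27me3 in both phases, on 17 chromosomes. Their median height was 31.8 in S and 58.7 in late G1, and their median width 375 bp in S and 625 bp in late G1. The median log2 relative height was -0.95 (-1.06 to -0.85), 179 of the 189 were relatively lower in S, and 84 (44.4%) were at least 2-fold lower.

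Elsewhere, the 2441 regions with H3K27me3 in both phases had a median of -0.29, with 6.51% at least 2-fold lower. Regions with H3K27me3 in neither phase had medians of 0.03 beside a stretch (249 regions) and 0.05 elsewhere, with 3.61% at least 2-fold lower beside a stretch and 1.18% elsewhere. On 11 of the 12 chromosomes with at least 5 H3K27me3 regions beside a stretch the median was below -0.5. Chromosome 1, with -0.20, was the exception.

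**Figure D5:**
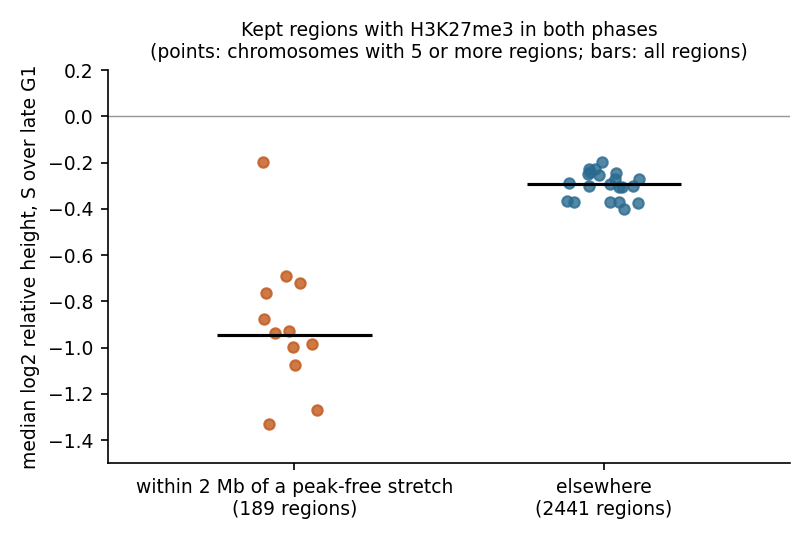
Median log2 relative height, S over late G1, of kept regions with H3K27me3 in both phases, within 2 Mb of the longest peak-free stretch of a chromosome (left) or elsewhere (right); each point is a chromosome with at least 5 such regions and each bar the median over all regions. The bars stand at -0.95 beside the stretches and -0.29 elsewhere, where the chromosomes run from -0.40 to -0.20.

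Loss of whole peaks was also more frequent beside the stretches. There 378 of 917 late G1 peaks were lost (41.2%), against 13.7% elsewhere. Of the 20 tallest lost peaks, 19 lay there. The tallest of them, and the lowest kept ratios beside the stretches, had prompted this step. They are counted in the values given for lost peaks and kept regions beside the stretches, so none of those values is independent evidence. Gained peaks made up 105 of 699 S peaks (15.02%) beside the stretches and 23.2% elsewhere. The H3K4me3 peaks beside the stretches numbered 522 of 23132 in early G1 (2.26%) and 917 of 23911 in late G1 (3.84%). They numbered 699 of 24308 during S phase (2.88%) and 914 of 26809 in G2/M (3.41%). Both the number and the share of the list were lowest in early G1 and next lowest in S.

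The 3 tallest lost peaks all fell in the first 100 kb after the stretch of chromosome 16, from 46385676 to 46485675. H3K4me3 peaks there numbered 0 in early G1, 18 in late G1, 12 during S phase and 22 in G2/M, and in that order they covered 0, 35.2, 3.4 and 36.2 kb. H3K27me3 covered 23.5 kb in S and 15.2 kb in late G1, and no H3K27ac peak was listed in either phase. DNA near centromeres is repetitive, and no source used here says how reads with several matches were placed, so the part of read placement in these values was not tested.

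Over the whole cycle, S stood between early G1 and the other phases in relative height, and in width without H3K27me3. In the 15482 regions listed for H3K4me3 in all 4 phases, the 2061 with H3K27me3 in both late G1 and S had median relative heights of 0.41 in early G1, 0.69 in late G1, 0.54 during S phase and 0.64 in G2/M. The 12704 with H3K27me3 in neither had 1.22, 1.10, 1.14 and 1.10 in the same order. The first class thus stood at 0.33, 0.63, 0.48 and 0.58 of the other, lowest in early G1 and highest in late G1, with S below both of its neighbours in the cycle. Median widths without H3K27me3 were 1225, 925, 1075 and 975 bp, widest in early G1 and second widest in S, while with H3K27me3 they were 750, 675, 675 and 700 bp.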

How the data were processed

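ChIP-seq peak lists for H3K4me3 in S and in late G1 were analysed, with the H3K27me3, H3K27ac and H3K4me1 lists of both phases and the H3K4me3 lists of early G1 and G2/M. Each deposited list holds peaks of 1 library. Per the submitters' processing notes, the tool Bowtie 0.12.7 and builds mm9 and hg19 are listed, with no role stated. Positions, unchanged from the files, are taken to be hg19. For the peak caller, its settings, read filters and use of the inputs, details were not given in the sources used here. Neither the inputs nor the 4C table were analysed here.

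The deposited signal per peak was read as its height, on a scale that no source used here states. The deposited score was negative for every peak of these lists and served only to rank peaks. Width and the position of the highest point are deposited in bases, on a 25 bp grid for peak ends. Every height on chromosomes coded 22 to 24 was 0, so chromosomes 1 to 21 were used.

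The tools were scipy 1.17.1, pandas 2.3.3, numpy 2.4.6 and matplotlib 3.10.9 under Python 3.11.15. Peaks matched when they shared at least 1 bp, and runs of overlapping peaks formed regions. A region's width in a list is the sum of its peak widths and its height that of its tallest peak, divided by the list's median over kept regions. A ratio of 2-fold was called large. The matching and ratios were tested on simulated data. No p-value was computed.

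Regions were named by rule: the 5 widest and 5 tallest gained and lost peaks and, for each H3K27me3 class of kept regions, the 3 largest and 3 smallest ratios of height (regions at or above the 25th percentile of height in both lists) and of width (at least 500 bp in both); the text gives a part of them. Gene lists (10 lists, 139 genes) were not used, since no annotation of the files' build was at hand. The members, lists and rules were chosen with earlier results of these data known. Alternatives were the stricter part of each list by score, lists of equal length, 50% overlap, peaks of at least 500 bp, all chromosomes, other scalings, 1:1 regions, other H3K27me3 definitions and leaving out places listed for both H3K27me3 and H3K27ac.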

Additional observations from a re-analysis of the deposited data

How the results depend on the processing

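No paired analysis was possible because each phase and mark had 1 library. The share of late G1 peaks kept (85.2%) was 92.5% in the stricter part of each list by score, 83.3% with 50% overlap, 94.1% for peaks of at least 500 bp and 86.3% without peaks beside peak-free stretches, an alternative chosen after seeing the data. The share of S peaks kept (77.0%) was 89.2% in the stricter part, 77.9% with lists of equal length, 75.05% with 50% overlap and 87.4% for peaks of at least 500 bp. The median log2 width ratio (0.17) was 0.19 in the stricter part and 0.18 for peaks of at least 500 bp. Regions at least 2-fold lower (455) and higher (193) numbered 139 and 51 in the stricter part, 160 and 63 for peaks of at least 500 bp and 210 and 512 on deposited heights, and ranks give no such count. The share of kept regions lower in S (51.4%) was 53.1% in the stricter part, 52.8% for peaks of at least 500 bp, 33.8% on deposited heights, 49.3% on ranks, 52.3% in 1:1 regions and 52.2% without the stretches.

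Between regions with H3K27me3 in both phases and in neither, the difference in median log2 relative height (-0.37) was -0.34 without the stretches and stayed below 0 in every alternative run. Among these runs, scaling on regions without H3K27me3 cannot change this difference by construction. The width difference (-0.20) was -0.16 in the stricter part, -0.16 for peaks of at least 500 bp and -0.21 with H3K27me3 taken within 2500 bp. The excess of lost late G1 peaks with H3K27me3 over those without (12.1 percentage points) was 19.2 in the stricter part, 15.7 for peaks of at least 500 bp and 13.9 within 2500 bp. The difference in gained S peaks (-5.30 points) was -0.13 in the stricter part, -3.03 within 2500 bp and 1.66, turned round, for peaks of at least 500 bp; the cause was not tested. Fewer peaks enter the stricter part and the 500 bp alternative by construction. With the number of reads unknown, the depth behind low peaks sets no limit that can be given here.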
